A study of Mus musculus with 54 samples.

Results

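The glucocorticoid receptor gene Nr3c1 and 6 genes known to respond to glucocorticoids (Zbtb16, Fkbp5, Tsc22d3, Per1, Sgk1 and Klf9) were followed in primary mouse microglia exposed to alpha-synuclein (aSyn), the protein that aggregates in Parkinson's disease. The 7 genes were picked by symbol from the 16632 genes of the count table. Zbtb16 led the choice because it was lower in cells given aSyn than in untreated cells. That contrast is therefore described here without a test, and tests are given for the co-cultured cells. All 7 genes passed the filter on low counts and were among the 13169 genes tested.

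Microglia of neonatal C57BL/6 mice, pooled from 2 brains per flask, were grown for 7 to 10 days in medium with calf serum and L929 cell supernatant and shaken off an astrocyte layer. Donor cells took up 1 µM fluorescently labelled aSyn for 14 h and acceptor cells received a violet tracing dye, before both were mixed and later sorted apart by flow cytometry. The design has 54 libraries in 14 groups. Untreated cells have 6 libraries, of which 2 pairs carry the same experiment number and were summed, leaving 4 values, and cells given aSyn without co-culture (aSyn-only) have 4. The 0 min point has 3 donor and 3 acceptor libraries, with 4 of each at 15, 30 and 150 min, 3 and 4 at 60 min, and 4 and 3 at 300 min, 22 donor and 22 acceptor libraries in all. The replicate number is called the experiment below, and it runs from 1 to 4. No group received a glucocorticoid according to the labels. The labels do not say whether untreated and aSyn-only cells were sorted, nor how a 0 min co-culture was made. Because the acceptors also carried the dye, the effects of aSyn and of dye cannot be told apart between donors and acceptors.

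Glucocorticoids bind the receptor encoded by Nr3c1, which is held in the cytoplasm by HSP90 and its co-chaperones and moves to the nucleus when bound. There it activates genes through DNA elements built of paired half-sites, and it damps inflammatory transcription, partly by interfering with NF-kB and AP-1. In microglia and macrophages this is the classic brake on cytokine production. Several of the target genes also answer to other signals, such as cyclic AMP, osmotic stress or serum.

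Library totals ran from 7807389 to 15537493 counts. All 7 microglia markers reported (Cx3cr1, P2ry12, Tmem119, Csf1r, Aif1, Trem2 and C1qa) were detected in every group. Their summed level was 3949 to 7340.0 CPM in experiments 1 to 3. In experiment 4, which carries a separate range of facility library numbers, it was 2451 to 3113 CPM in untreated cells and acceptors and 1144 to 1426 CPM in aSyn-only cells and donors. Levels are CPM (counts per 1000000 counts of the TMM-scaled library size), and since the reads lie near the 3′ end of transcripts, levels were not compared between genes.

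Donors differed from acceptors in 4 of the 7 genes, on average over the 6 times. Zbtb16 was lower in donors, and Tsc22d3, Sgk1 and Per1 were higher. In the edgeR quasi-likelihood test 25.6% of all genes tested passed in this comparison, 12.7% higher and 12.9% lower in donors, so a call by itself does not set a gene apart. With the experiment number as a block 6 of 7 passed, Fkbp5 and Klf9 also being lower in donors, against 44.3% of all genes (20.4% higher and 24.0% lower). Nr3c1 itself did not pass in either fit. The known glucocorticoid-induced genes thus did not move in 1 direction: 3 were higher and 1 was lower without the block, and 3 and 3 with it. Zbtb16, Tsc22d3 and Sgk1 passed under all 16 alternatives, Per1 under 12, Fkbp5 under 4 and Klf9 under 2. In such bulk samples fewer cells expressing a gene and less RNA per cell cannot be told apart. The averages treat the 22 donor and 22 acceptor libraries, which come from 4 experiments, as separate units, and the p-values measure the spread between these libraries.

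**Figure D1:**
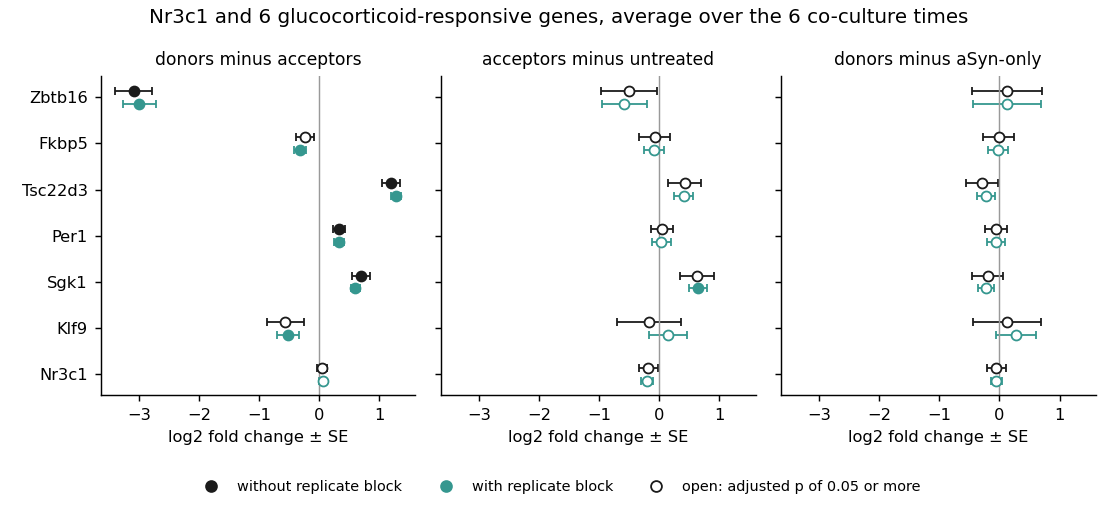
Log2 fold change ± SE (x axis) of each of the 7 genes (y axis) for donors minus acceptors, acceptors minus untreated and donors minus aSyn-only cells, each averaged over the 6 co-culture times. Black points are from the fit without and green points from the fit with the replicate block, and filled points passed an edgeR adjusted p of 0.05; Zbtb16 lies at -3.09 and Tsc22d3 at 1.20 in the left panel, and in the right panel no point is filled.

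The receptor gene Nr3c1 was measured at 77.2 ± 4.74 CPM in untreated cells and 72.7 ± 7.73 CPM in aSyn-only cells (SD, n = 4 each). Its group means over donors lay between 60.8 CPM at 0 min and 81.3 CPM at 150 min, and over acceptors between 59.6 CPM at 30 min and 77.4 CPM at 150 min. Donors and acceptors overlapped at all 6 times, and donors were the higher in 11 of 21 same-numbered pairs. The donor minus acceptor log2 difference was 0.045 (SE 0.089, edgeR adjusted p 0.755, in the blocked fit 0.431). In co-cultured cells Nr3c1 was mostly higher in experiment 4, at 79.5 to 101 CPM in donors and 86.9 to 103 CPM in acceptors. The exception was donors at 150 min, where experiment 1 had 88.2 CPM and experiment 4 had 83.1 CPM. In the other 3 experiments all its donor and acceptor values lay between 47.9 and 88.2 CPM. In acceptors at 30 min it was 0.37 lower than in untreated cells on the log2 scale, which passed with the replicate block (-0.42, edgeR adjusted p 0.0449) and not without it (0.753).

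Fkbp5 encodes an HSP90 co-chaperone that lowers the receptor's affinity for its hormone and is itself induced by the receptor, a short feedback loop. Its levels in untreated cells were 13.7, 12.3, 16.1 and 13.1 CPM in experiments 1 to 4. In aSyn-only cells they were 9.94, 7.03, 19.3 and 8.46 CPM in the same order, so that it was lower in experiments 1, 2 and 4 and higher in experiment 3. Over all times the 22 donor libraries had a lowest, median and highest value of 5.25, 10.7 and 19.3 CPM. The 22 acceptor libraries had 6.64, 13 and 18.1 CPM. The ranges overlapped at all 6 times, and Fkbp5 was lower in donors in 16 of 21 same-numbered pairs. The difference was -0.24 (SE 0.15, edgeR adjusted p 0.233) and passed with the replicate block (-0.32, 0.00546). In the blocked fit it no longer passed without experiment 1 or 2. In donors experiment 3 stood apart, with a mean of 16 CPM against 7.49 to 11 CPM in the other experiments, while its acceptor mean of 15.1 CPM was close to the 15.3 CPM of experiment 1. Without experiment 3 the difference passed without the block too (-0.43, edgeR adjusted p 0.0363). The gene lies at chr17:28399094-28517527 (GRCm38, minus strand), where it shares ground with 2 annotated genes on its own strand and 2 on the opposite one, so its counts may include reads of these.

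Zbtb16 encodes PLZF, a zinc-finger transcriptional repressor that is strongly induced by glucocorticoids in many cell types and shapes innate-like lymphocytes and stem cells. It is a protein-coding gene at chr9:48654297-48836222 (GRCm38, minus strand) and overlaps no other annotated gene. In untreated cells it stood at 6.26, 4.01, 1.97 and 7.35 CPM in experiments 1 to 4. In aSyn-only cells it stood at 0.663, 0.213, 0.477 and 0.0873 CPM, from 9, 3, 6 and 1 counts. Each of the 4 aSyn-only values was below each of the 4 untreated ones, a difference of -3.72 on the log2 scale by which the gene was chosen. Of all genes tested, 3.6% were lower and 4.5% higher in aSyn-only cells without overlap.

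The acceptor values overlapped those of the untreated cells at every time. At 0 min experiments 1, 2 and 3 gave 2.48, 4.35 and 1.57 CPM, and at 15 min experiments 1 to 4 gave 3.29, 8.0, 1.83 and 7.24 CPM. At 30 min the 4 values were 3.92, 5.45, 1.45 and 3.00 CPM, and at 60 min 4.32, 4.38, 2.90 and 4.53 CPM. Experiment 2 was the highest and experiment 3 the lowest of the acceptors at 0, 15 and 30 min. At 150 min the values were 1.86, 4.16, 1.86 and 3.08 CPM, and at 300 min experiments 1, 2 and 4 gave 2.14, 5.38 and 1.84 CPM.

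The donor values overlapped those of the aSyn-only cells at every time. At 0 min experiments 1, 2 and 3 gave 0.263, 0.452 and 0.647 CPM, and at 15 min experiments 1 to 4 gave 0.438, 0.352, 0 and 0.317 CPM. At 30 min they gave 0.501, 0.0932, 0.569 and 0 CPM, and at 60 min experiments 1, 3 and 4 gave 0.845, 0.528 and 0.157 CPM. No donor library had more than 11 Zbtb16 counts, while acceptor libraries had 19 to 86. The gene passed the filter on low counts through the acceptors and untreated cells, where it is high. At 150 min the values were 0.502, 0.369, 0.481 and 0.292 CPM, and at 300 min 0.736, 0.836, 0.356 and 0 CPM. The 3 libraries at 0 counts allow up to 0.235, 0.239 and 0.258 CPM (3 counts, counting error only).

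The highest donor library (0.845 CPM) was below the lowest acceptor library (1.45 CPM). Zbtb16 was lower in donors in 21 of 21 same-numbered pairs, and the groups did not overlap at 6 of 6 times. At 0, 15, 30, 60, 150 and 300 min 8.13, 2.72, 2.52, 3.95, 2.26 and 2.88% of all genes were lower in donors without overlap. Over all times at once 2 of 13169 genes (0.0152%) had every donor library below every acceptor library, Zbtb16 and Rtn4, while 24 (0.182%) had every donor library above. The average difference was -3.09 (SE 0.31, edgeR adjusted p 5.54e-10, in the blocked fit -3.00 and 1.08e-11), an 8.54-fold lower level in donors. By group means the 7 groups without aSyn took ranks 1 to 7 and the 7 groups with it ranks 8 to 14. Untreated cells (rank 2) and aSyn-only cells (rank 12) are the groups by which the gene was chosen, so their places are no support. Neighbouring groups within the set without aSyn and within the set with it overlapped. The last group without aSyn, acceptors at 150 min (2.74 ± 1.11 CPM, SD, n = 4), and the first with it, donors at 60 min (0.510 ± 0.344 CPM, SD, n = 3), did not.

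**Figure D2:**
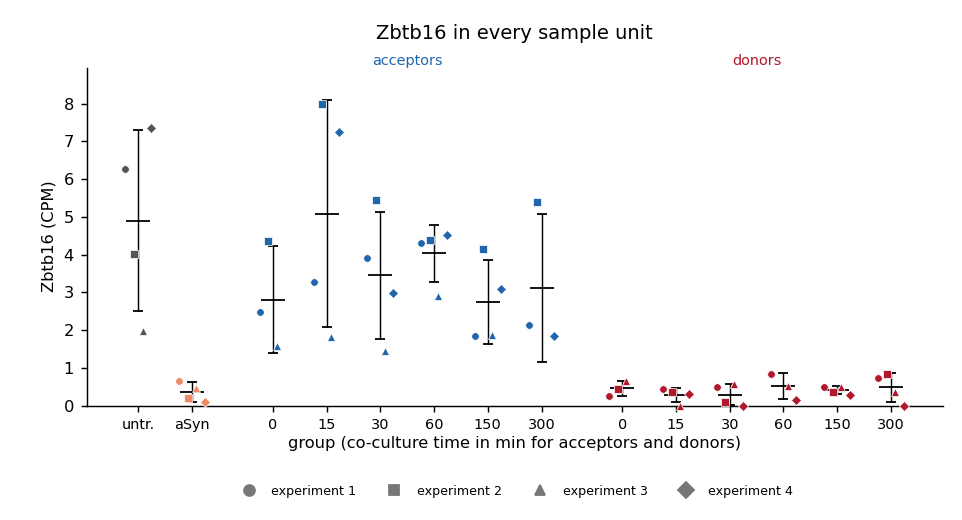
Zbtb16 level in CPM (y axis, linear) in untreated cells, aSyn-only cells, and acceptors and donors at 0 to 300 min (x axis). Each symbol is 1 sample unit with its shape giving the experiment, the black bar is the mean and the whisker the SD; all 22 donor libraries lie at or below 0.845 CPM and all 22 acceptor libraries at or above 1.45 CPM.

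At single times the Zbtb16 difference passed the edgeR test without the block at 15 min (-4.15, SE 0.75, adjusted p 0.00150) and 30 min (-3.49, SE 0.74, adjusted p 0.00873), where 0.888 and 0.805% of all genes passed. With the replicate block 4.28, 9.57, 10.8, 6.7, 5.19 and 1.38% of all genes passed at the 6 times in order. Zbtb16 passed at all 6 in that fit, with differences between -4.15 and -2.45 and edgeR adjusted p between 4.07e-05 and 0.0353. Zbtb16 did not pass for a change over time in donors or in acceptors (edgeR adjusted p 1.0 in each, with the block 1.0 in each), and the test of the donor-acceptor difference over time gave 1.0 as well. Donors did not differ detectably from aSyn-only cells (0.12, SE 0.58, edgeR adjusted p 1.0), nor acceptors from untreated cells (-0.51, SE 0.46, edgeR adjusted p 0.741, in the blocked fit 0.344). The last 2 comparisons reuse the aSyn-only and untreated libraries by which Zbtb16 was chosen, so they are no independent evidence of likeness, and the same holds for these comparisons of the other 6 genes. Donor and acceptor libraries are others, but they come from the same 4 experiments and repeat the same division by aSyn. Their difference is therefore no separate replication of the contrast that led the choice.

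Astrocytes, on which the microglia had been grown, were followed with 10 markers because their transcripts could reach these libraries. The summed astrocyte level was 12.4 to 181 CPM in untreated cells, 11.9 to 44.1 CPM in aSyn-only cells, 9.18 to 44.2 CPM in donors and 9.30 to 56.3 CPM in acceptors. Between donors and acceptors 0 of the 10 markers passed, with 2 lower in donors in the blocked fit and a median difference of -0.60. By experiment the summed level was 9.30 to 22.3 CPM in experiment 1, 9.18 to 21.2 CPM in experiment 2, 13.9 to 103 CPM in experiment 3 and 12 to 181 CPM in experiment 4. In experiment 2 Aqp4 had 0 counts in every library, while Aldh1l1 was detected with up to 9.29 CPM. The part of astrocyte transcripts in the Zbtb16 level was not tested.

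The genes whose pattern was most like that of Zbtb16 over the 52 units, after the mean of each experiment had been subtracted from log2 CPM, were Cbx3 (Pearson r 0.922), Rtn4 (0.899), Map3k20 (0.894), Cbx6 (0.893) and Sft2d2 (0.892). Before that subtraction r was 0.787 to 0.866. These units share the 4 experiments and the division into cells with and without aSyn, so the values are a description. Cbx3 and Cbx6 encode chromobox proteins, which bind methylated histone H3, Rtn4 encodes the endoplasmic reticulum protein Nogo, and Map3k20 the stress kinase ZAK. Cbx3 went from 152 ± 34.5 CPM in untreated to 87.7 ± 8.18 CPM in aSyn-only cells, and Map3k20 from 36.4 to 18.4 CPM in the mean.

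Klf9 encodes a Krüppel-like transcription factor induced by glucocorticoids and thyroid hormone. Its level depended on the experiment: untreated cells had 2.42, 0.959, 6.34 and 16.2 CPM in experiments 1 to 4. In aSyn-only cells the values were 2.28, 1.49, 3.02 and 7.59 CPM, lower in 3 of 4 experiments. In experiment 4 donors had 5.47 to 7.14 CPM and acceptors 8.32 to 15.4 CPM, without overlap, whereas in the other experiments donor and acceptor ranges overlapped. Those libraries are time points of 1 experiment, and the share of all genes set apart there was not counted. Klf9 was lower in donors in 18 of 21 same-numbered pairs, and the groups overlapped at all 6 times. The average difference was -0.57 (SE 0.31, edgeR adjusted p 0.181) and passed with the replicate block (-0.52, 0.0199). Without experiment 4 it was -0.33, and -0.39 with the block (edgeR adjusted p 0.455 and 0.169). With the block the call was also lost without experiment 1 or 2. The gene (chr19:23141226-23168134, GRCm38, plus strand) holds Mir1192 on its own strand.

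**Figure D3:**
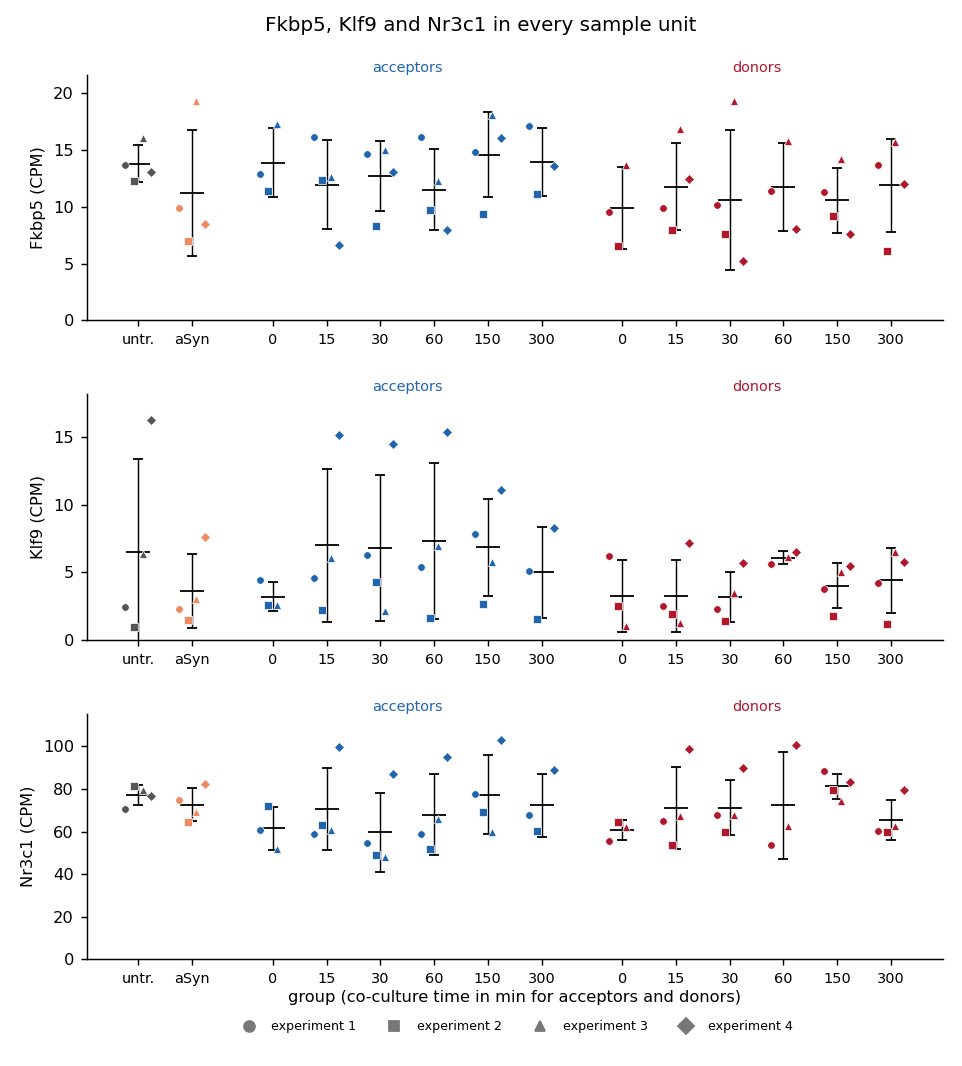
Levels in CPM (y axes, linear, each from 0) of Fkbp5, Klf9 and Nr3c1 in untreated cells, aSyn-only cells, and acceptors and donors by co-culture time in min (x axis). Each symbol is 1 sample unit with its shape giving the experiment, bars are means and whiskers SD, ending at 0 where they would pass it; donors and acceptors overlap at all 6 times in each panel, and the experiment 4 diamonds stand high for Klf9 and Nr3c1.

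Tsc22d3 encodes GILZ, a leucine-zipper protein that binds NF-kB and AP-1 subunits and carries part of the anti-inflammatory action of glucocorticoids. It moved the opposite way to Zbtb16. Untreated cells had 18.1, 41.6, 13.9 and 25.5 CPM in experiments 1 to 4. The aSyn-only cells had 90.4, 145, 65.0 and 72.0 CPM, each above all untreated values. Of all genes tested, 4.5% were higher in aSyn-only cells without overlap. The log2 difference of 1.90 is given as a description.

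In donors Tsc22d3 started high. At 0 min experiments 1, 2 and 3 gave 89.6, 127 and 67.8 CPM, and at 15 min experiments 1 to 4 gave 100.1, 129, 66.5 and 89.3 CPM. At 30 min the values were 106, 122, 70.9 and 93.6 CPM, and at 60 min 79.4, 73.5 and 98.6 CPM in experiments 1, 3 and 4. Up to this time the lowest donor library had 66.5 CPM, above the highest untreated value. At 150 min the values were 52.8, 86.6, 59.5 and 75.2 CPM, and at 300 min 40.1, 58.7, 27.8 and 25.5 CPM. The level at 300 min was lower than at 15, 30 and 150 min in 4 of 4 experiments.

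In acceptors the level at 300 min was lower than at 15 and 30 min in 3 of 3 experiments. Their group means ran from 29.0 ± 10.9 CPM at 300 min (SD, n = 3) to 37.9 ± 19.9 CPM at 150 min (SD, n = 4), and single libraries from 14.9 to 64.0 CPM. Tsc22d3 was higher in donors in 21 of 21 same-numbered pairs, and groups did not overlap at 4 of 6 times, 0, 15, 30 and 60 min, where 8.63, 3.12, 3.31 and 3.85% of all genes were higher without overlap, against 2.36 and 3.15% at 150 and 300 min. The average difference was 1.20 (SE 0.15, edgeR adjusted p 1.47e-07, in the blocked fit 1.28 and 3.04e-15), a 2.29-fold higher level. At single times it passed without the block at 15 min (1.58, SE 0.36, edgeR adjusted p 0.0161) and 30 min (1.67, SE 0.36, edgeR adjusted p 0.00972). With the block it passed from 0 to 150 min, with differences between 0.95 and 1.67 and edgeR adjusted p of at most 0.00254. At 300 min it did not pass in either fit (0.39, edgeR adjusted p 0.959; in the blocked fit 0.50 and 0.249).

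The change over time in donors, an F test over the 6 times, passed for 0.0607% of all genes without the block and for 0.577% with it. None of the 7 genes passed without the block, and 3 passed with it: Tsc22d3, Per1 and Sgk1. For Tsc22d3 the difference between 300 and 0 min was -1.32 (edgeR adjusted p 1.0; in the blocked fit -1.26 and 1.26e-04), and with the block the call held without each experiment in turn (edgeR adjusted p at most 0.0433). In acceptors none of the 7 passed in either fit, where 0.00759% of all genes did without the block and 0.137% with it. Tsc22d3 had a difference of -0.22 there. The donor-acceptor difference over time did not pass for Tsc22d3 (edgeR adjusted p 1.0, in the blocked fit 0.451) or for any of the other 6, and among all genes 0 passed without the block (113 at an unadjusted p under 0.05) and 6 (0.0456%) with it. A course that is particular to donors was therefore not shown.

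Donors against aSyn-only cells gave 0 of 7 calls on average over the times, with and without the block, among 0.0152 and 0.00759% of all genes. At 300 min, Tsc22d3 was lower in donors than in aSyn-only cells with the replicate block (-1.29, edgeR adjusted p 2.02e-04) and did not pass without it (-1.29, SE 0.35, 0.644), where 0.0304% of all genes passed (with the block 0.304%). Sgk1 was also lower at 300 min with the block (-0.85, edgeR adjusted p 0.0166; without it -0.80 and 1.0).

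Sgk1 encodes a serum- and glucocorticoid-induced kinase that regulates ion channels and cell survival. Untreated cells had 53.4, 100.1, 89.7 and 79.2 CPM in experiments 1 to 4, and aSyn-only cells 157, 210 and 323 CPM in experiments 1 to 3 and, from 2682 counts, a level between the latter values in experiment 4. Each aSyn-only value was above all untreated values (1.52 on the log2 scale, a description), as was the case for 4.5% of all genes tested. Donors at 0 min had 163, 204 and 323 CPM in experiments 1 to 3, and at 15 min 175, 225.6, 407 and 247.6 CPM in experiments 1 to 4. At 30 min they had 141, 186, 367 and 222 CPM. At 60 min experiments 1, 3 and 4 had 85.8, 295 and 223 CPM. In every one of these sets experiment 1 was the lowest and experiment 3 the highest. At 150 min the values were 124, 159, 263 and 175 CPM, and at 300 min 70.1, 105, 190.2 and 165 CPM.

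By group means, and not in every library, acceptors lay between untreated cells and donors for Sgk1 at each time. Their group means were 96.1 ± 5.36 CPM at 0 min (SD, n = 3), 133 ± 23.5 at 15 min, 129 ± 38.0 at 30 min, 142 ± 64.1 at 60 min, 154 ± 46.9 at 150 min (SD, n = 4 each) and 105 ± 40.0 at 300 min (SD, n = 3). Sgk1 was higher in donors in 18 of 21 same-numbered pairs, and donors and acceptors did not overlap at 2 of 6 times, 0 and 15 min, where 8.63 and 3.12% of all genes were higher without overlap. The average difference was 0.69 (SE 0.15, edgeR adjusted p 6.51e-04, in the blocked fit 0.60 and 3.55e-08), a 1.61-fold higher level. At single times it passed with the block alone, at 0, 15 and 30 min (1.13, 0.94 and 0.78, edgeR adjusted p at most 0.00316).

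In acceptors against untreated cells 0 of the 7 genes passed without the block, among 0.813% of all genes, and Sgk1 alone passed with it, among 10.9%. Sgk1 was higher in acceptors in 19 of 22 same-numbered pairs, a log2 difference of 0.63 (SE 0.28, edgeR adjusted p 0.342; in the blocked fit 0.64 and 0.00271). With the block it also passed at 15, 30, 60 and 150 min, as did 2.25, 3.6, 4.0 and 4.78% of all genes, with differences between 0.64 and 0.88 and edgeR adjusted p between 0.00213 and 0.0326. In the same blocked comparison 8 of 10 astrocyte, 6 of 8 oligodendrocyte, 3 of 5 neuron and 2 of 4 fibroblast markers were lower in acceptors (medians -1.58, -1.41, -1.66 and -1.66), and their part in the Sgk1 difference was not tested. The Sgk1 change over time in donors had a 300 minus 0 min difference of -0.80 (edgeR adjusted p 1.0; in the blocked fit -0.89 and 0.00855). In the blocked fit this call was lost without experiment 1 or 2.

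Per1 encodes a period protein, a repressor of the circadian clock whose gene is switched on rapidly by glucocorticoids and by cyclic AMP. Untreated cells had 17.0, 15.3, 16.1 and 15.2 CPM in experiments 1 to 4, and aSyn-only cells 18.6, 20.9, 24.6 and 21.4 CPM. Each aSyn-only value was above all untreated ones (0.43 on the log2 scale, a description), as for 4.5% of all genes tested. Donors had 24.9 ± 3.93 CPM at 0 min (SD, n = 3), 24.1 ± 3.82 at 15 min, 28.6 ± 3.60 at 30 min (SD, n = 4 each) and 22.5 ± 6.93 at 60 min (SD, n = 3). They had 13.6 ± 2.92 CPM at 150 min and 14.1 ± 1.55 at 300 min (SD, n = 4 each), at or below the untreated level. Acceptors had 13 ± 1.75 CPM at 0 min (SD, n = 3), 18.1 ± 3.54, 19.8 ± 6.88, 22.2 ± 11.3 and 12.7 ± 2.10 at 15, 30, 60 and 150 min (SD, n = 4 each), and 14.7 ± 3.06 at 300 min (SD, n = 3). The highest acceptor values, 36.0 and 28.8 CPM, came from experiment 4 at 60 min and experiment 3 at 30 min.

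Donors and acceptors did not overlap for Per1 at 1 of 6 times, 0 min, where 8.63% of all genes were higher without overlap, and donors were the higher in 14 of 21 same-numbered pairs. The average difference was 0.32 (SE 0.10, edgeR adjusted p 0.0160, in the blocked fit 0.33 and 0.00186). It did not pass without experiment 1 (0.32, edgeR adjusted p 0.0614), without experiment 2 (0.22, 0.203; with the block 0.0759) or over 15 to 300 min (0.20, 0.188). At 0 min it was 0.93 and passed with the block (0.92, edgeR adjusted p 0.0153) and not without it (0.184). The 300 minus 0 min difference in donors was -0.81 (edgeR adjusted p 0.118; in the blocked fit -0.87 and 0.00196), and Per1 was lower at 300 than at 15 and 30 min in 4 of 4 experiments in donors and in 3 of 3 in acceptors. With the block this call was lost without experiment 1 or 2.

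**Figure D4:**
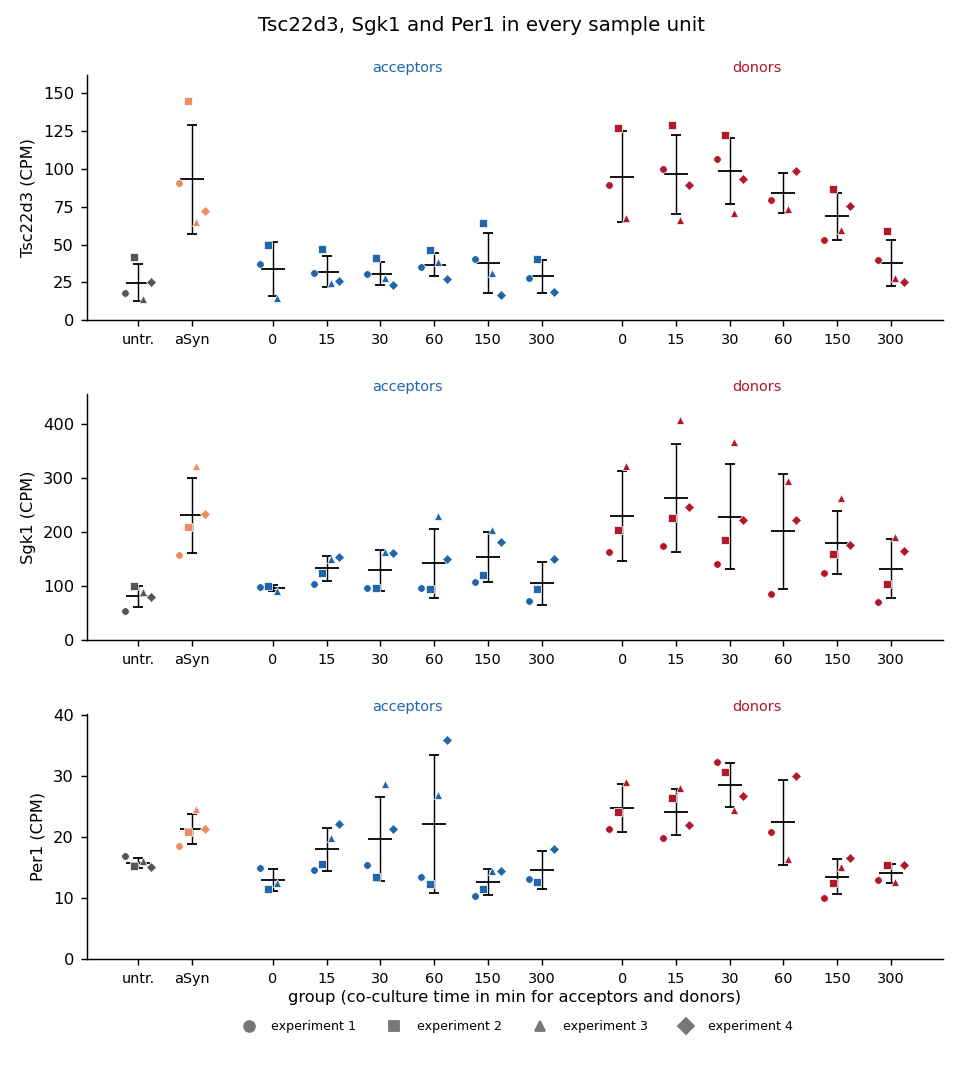
Levels in CPM (y axes, linear, each from 0) of Tsc22d3, Sgk1 and Per1 in untreated cells, aSyn-only cells, and acceptors and donors by co-culture time in min (x axis). Each symbol is 1 sample unit with its shape giving the experiment, bars are means and whiskers SD; mean Tsc22d3 in donors is 98.3 CPM at 30 min and 38.0 CPM at 300 min, while the acceptor means stay between 29.0 and 37.9 CPM.

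The 3 genes that were higher in donors are shown with the upstream part of 1 of their promoters, since they share a donor-acceptor direction and are textbook receptor targets. The window shown for each was picked because it holds a match. RefSeq (GRCm38.p6) gave 13 promoter windows for 5 of the 7 genes, each from 250 bases before to 50 bases after a transcription start. The following 3 motifs were searched on both strands: the full glucocorticoid response element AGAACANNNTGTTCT, its half-site TGTTCT, which the full element contains on each strand, and the E-box CACGTG bound by clock and other factors. Shown are the first 100 bases of a window, 5′ to 3′ on the gene's strand, with matches in capitals. In the Sgk1 stretch the E-box and a half-site overlap at the first run of capitals.
Sgk1, chr10:21993640-21993739, plus strand: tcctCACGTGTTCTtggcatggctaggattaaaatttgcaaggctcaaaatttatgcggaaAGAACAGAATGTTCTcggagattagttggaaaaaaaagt
Tsc22d3, chrX:140600673-140600772, minus strand: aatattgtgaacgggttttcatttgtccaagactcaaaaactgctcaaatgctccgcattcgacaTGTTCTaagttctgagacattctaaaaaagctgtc
Per1, chr11:69098699-69098798, plus strand: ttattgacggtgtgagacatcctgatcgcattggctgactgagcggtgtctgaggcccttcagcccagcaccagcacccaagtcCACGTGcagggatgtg

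The Sgk1 window holds the full element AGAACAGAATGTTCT at chr10:21993701-21993715, 189 bases before the start. Of all 32851 RefSeq mouse windows of 300 bases, 3 (0.00913%) held the full motif, and 19% held the half-site, as the Tsc22d3 window does 185 bases before the start. The E-box was in 7.15% of windows and lies 166 bases before the start in the Per1 window. Counted by gene, 0.0111, 21.3 and 8.09% of genes had a window with the full motif, the half-site and the E-box. Since the windows shown were picked for holding a match, the shares per window do not measure how unusual these matches are. Of the 6 Sgk1 windows 1 held the full element, and the others held a half-site or no match. The other 2 Tsc22d3 windows, the other Per1 window and the only Klf9 window held no match. Zbtb16 and Nr3c1 had no window. The window of Fkbp5, which was lower in donors in the blocked fit, held the E-box as well. These are matches of letters, and no binding was measured here. The genes themselves lie at chr10:21882184-21999903 (Sgk1, plus strand), chrX:140539528-140600659 (Tsc22d3, minus strand) and chr11:69095217-69109960 (Per1, plus strand), and none of the 3 overlaps another annotated gene.

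Across the 52 units, with experiment means subtracted, Zbtb16 was negatively correlated with Tsc22d3 (Pearson r -0.76) and Sgk1 (-0.67), and Tsc22d3 and Sgk1 went together (0.84). Zbtb16 had r of 0.45 with Fkbp5, 0.48 with Klf9 and -0.051 with Nr3c1. These values describe units that share experiments and the division by aSyn.

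Of 30 further genes known to be induced by glucocorticoids, 26 were tested, and 6 passed between donors and acceptors, 4 higher and 2 lower in donors (median difference 0.12, against -0.023 over all genes). This share of 23.1% lies near the 25.6% of all genes. With the replicate block 16 passed, 9 higher and 7 lower (61.5%, against 44.3%). Without experiment 1 the count was 3 of 26, and without experiment 4 it was 11 of 25, 10 higher and 1 lower, against 19.8 and 20.9% of all genes. Per2, a second period gene, was higher in donors (1.35, SE 0.25, edgeR adjusted p 7.91e-05), as were Hif3a (1.70, SE 0.59, edgeR adjusted p 0.0284), an inhibitory hypoxia factor whose highest group mean was 0.760 CPM, and Rhob (0.62, SE 0.17, edgeR adjusted p 0.00546), a small GTPase. The metallothioneins Mt2 (-1.23, SE 0.27, edgeR adjusted p 7.57e-04) and Mt1 (-0.48, SE 0.13, edgeR adjusted p 0.00621), which bind zinc and copper, were lower. Of these 5 genes Per2 alone kept its call without each experiment in turn. In donors over time 2 of the 26 passed, both falling: Rhob from 175 ± 67.9 CPM at 0 min to 49.1 ± 13.8 at 300 min (edgeR adjusted p 0.0237), and Dusp1, the phosphatase that switches off MAP kinases, from 380.1 ± 73.7 to 149 ± 37.4 CPM (edgeR adjusted p 0.0472). Both calls were lost without experiment 1, 2 or 3 (edgeR adjusted p 0.320 to 1.0) and held with the block. Dusp1 in acceptors had a mean of 172 CPM at 0 min, 410.1 CPM at 30 min and 156 CPM at 300 min.

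Of 18 genes of the receptor's machinery 16 were tested and 3 passed (median difference -0.022). The chaperone gene Hspa8 was higher in donors (0.33, edgeR adjusted p 0.0127), and the coactivator genes Ncoa2 (-0.44, edgeR adjusted p 4.56e-05) and Ncoa1 (-0.35, 0.00145) were lower. With the block 7 passed, 2 higher and 5 lower. These shares, 18.8 and 43.8%, were below or near those of all genes, 25.6 and 44.3%. The Hspa8 call was lost without experiment 1 (edgeR adjusted p 0.0844).

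Among inflammatory genes that glucocorticoids are known to repress, 17 of 19 tested passed between donors and acceptors, 15 higher and 2 lower in donors, against 12.7 and 12.9% of all genes. The median was 2.26 (1.78 with the block, where the counts were the same), and 1.09 without experiment 4, where 16 of 17 tested passed, 14 higher and 2 lower. All gene lists were chosen with earlier results of these data known. A share above that of all genes is therefore no independent support, here or for the clock genes below. Il12b, counted as tested, had no usable estimate (SE 3333). Nos2, the inducible nitric oxide synthase (3.92, SE 0.76, edgeR adjusted p 1.55e-04), Il6 (3.91, SE 1.11, edgeR adjusted p 0.00758) and Il1a (3.88, SE 0.98, edgeR adjusted p 0.00293) had the largest differences. Their levels came mostly from experiment 4: donors there had 42.4 to 101 CPM of Nos2, 10.9 to 40.4 CPM of Il6 and 117 to 159 CPM of Il1a. In experiments 1 to 3 the highest donor values were 6.30, 0.517 and 2.73 CPM. Without experiment 4 Nos2 was at 2.30 and Il1a at 2.73 (edgeR adjusted p 0.00177 and 0.00398), and Il6 did not pass the filter on low counts. Il6 also lost its call without experiment 2 (edgeR adjusted p 0.376). Ccl4 (-0.81, edgeR adjusted p 0.00415) and Ccl3 (-0.57, 0.0179), chemokines that draw in monocytes, were lower, and both lost the call without experiment 3 (edgeR adjusted p 0.0623 and 0.0896), Ccl3 also without experiment 1 (0.158).

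Of 16 clock genes 14 were tested and 9 passed, 5 higher and 4 lower in donors (median -0.023), against 25.6% of all genes. The count was 6 to 9 with an experiment left out, and 5 were higher each time. Beside Per2, the repressors Nr1d1 (1.03, edgeR adjusted p 0.00354) and Bhlhe40 (0.91, 1.12e-04) were higher. Rora (-0.68, edgeR adjusted p 0.00830), Per3 (-0.59, 0.0101) and Nr1d2 (-0.33, 0.0471) were lower, and each of the 3 lost the call without at least 1 experiment. Of 9 tested relatives of the 7 genes, 4 passed (44.4%, against 25.6% of all genes). With an experiment left out 1 to 4 did, where 18.7 to 20.9% of all genes passed. Tsc22d1 (-0.45, edgeR adjusted p 0.00289), unlike Tsc22d3, was lower in donors, and Klf13 (0.26, 0.0430) was higher. Tsc22d1 lost its call without experiment 3 or 4 (edgeR adjusted p 0.0795 and 0.126) and Klf13 without experiment 1, 2 or 3 (0.0753 to 0.181).

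**Figure D5:**
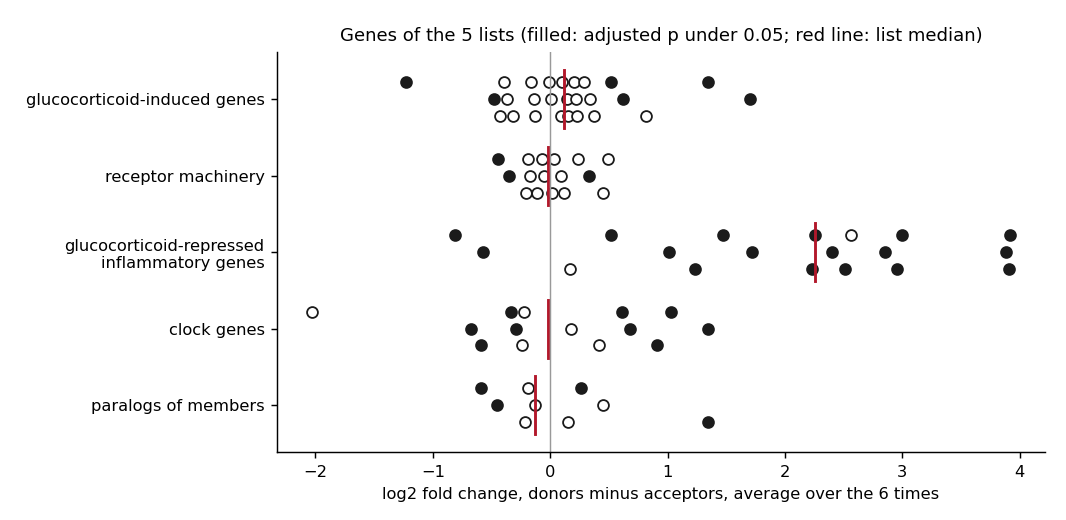
Log2 fold change of donors minus acceptors, averaged over the 6 times (x axis), for the tested genes of 5 lists (y axis). Each circle is 1 gene, filled where the edgeR adjusted p was under 0.05, and the red line is the list median, which is 2.26 for the inflammatory genes and 0.12 for the glucocorticoid-induced genes.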

How the data were processed

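The 54 libraries were made with a 3′ mRNA kit and sequenced as 50 bp single reads, per the labels' protocols. Raw counts per gene symbol and, in a second table, a normalized signal were deposited by the authors. The submitters' processing notes name STAR, Partek, DESeq2 and mm10, without their roles, and whether counting used strand is not given in the sources used here. The deposited normalized signal equalled the count divided by a size factor in 100% of values (tolerance 0.0501) and was used for that check alone.

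Counts of untreated libraries with the same number were summed, because they differed less than libraries of other numbers: chi-square per degree of freedom was 12.1 and 10.3 against 24.2 to 288. This left 52 units. The ribosomal precursor Rn45s took 18.2% of counts in experiment 4 and 6.60% in the others. Passage was 3 in experiment 1, 1 in experiment 2, and 2 in experiments 3 and 4.

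Tests used edgeR 4.0.16 in R 4.3.3 (TMM, filterByExpr with a minimum count of 10, quasi-likelihood F test, group means over 14 groups, Benjamini-Hochberg adjusted p under 0.05 over 13169 genes). DESeq2 1.42.0 was an alternative. Each standard error is the log2 fold change over the square root of F. The code was tested on simulated data. The replicate numbers shared by the labels pair the libraries: same-numbered libraries deviated together in every pair (r at least 0.199, means 0.339 to 0.593), so the block is given where it changes a call. Log2 CPM for correlations used a prior count of 2. The labels name no molecular identifiers, so floors cover counting error only.

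The members and the gene lists were chosen with earlier results of these data known. Named beside the members are, per list, up to 3 called genes with the largest rise and fall in the averaged contrasts and time tests, and the 5 genes with the highest correlation with Zbtb16. Rtn4 at the non-overlap count and Dusp1 in acceptors were given after their values were seen. Gene positions are from GENCODE vM21 (GRCm38) and promoters from RefSeq (GRCm38.p6). Nr3c1 is given without position. Alternatives were size factors, Rn45s, the filter, DESeq2, the block, fits of the groups compared, separate untreated libraries, each experiment left out (for the gene lists added after the data were seen), and averages over 15 to 300 min. Between donors and acceptors, without the block, 2 of 7 microglia markers passed (1 higher, 1 lower; 1 further marker of the list is not reported here), 0 of 8 oligodendrocyte, 1 of 5 neuron, 2 of 4 vessel, 0 of 4 fibroblast and 1 of 1 tested blood cell markers.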

Additional observations from a re-analysis of the deposited data

Results flagged for a closer look

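In groups of 4 units, 1 value stood far from the other 3 in 4 of the 70 gene-by-group sets examined, by Dixon's test of the gap to its neighbour over the group's range. Chance flags about 1 in 20 groups. Of these 4 values, 3 were Nr3c1 in experiment 4, which carries a separate range of facility library numbers. They were 99.5 CPM in acceptors at 15 min (next 63.2 CPM), 86.9 CPM in acceptors at 30 min (next 54.5 CPM) and 79.5 CPM in donors at 300 min (next 62.8 CPM). The other was Zbtb16 in acceptors at 60 min in experiment 3, at 2.90 CPM where the other 3 units had 4.32 to 4.53 CPM, and it was still above every donor library.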

How the results depend on the processing

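Of the donor-acceptor averages, Zbtb16, Tsc22d3 and Sgk1 passed under all 16 alternatives, with differences of -3.39 to -2.72, 1.07 to 1.36 and 0.49 to 0.79. The count of the 7 genes called was 3 to 6 over these alternatives. Member-by-time calls between donors and acceptors numbered 4 of 42, against 9 with DESeq2, 15 with the replicate block, 1 in fits of the groups compared and 1 to 4 with an experiment left out. Of all genes 0.0304 to 0.888% passed per time, and 1.38 to 10.8% with the replicate block. Acceptors against untreated cells gave 0 calls at single times, 5 with the replicate block and 0 to 1 with an experiment left out, and on average 1 with the replicate block. Here at most 0.137% of all genes passed per time, 0.623 to 4.78% with the block, and 10.9% on average with it. Donors against aSyn-only cells gave 0 calls at single times and 2 with the replicate block, against at most 0.0304 and 0.304% of all genes per time. Change over time in donors gave 0 calls, 1 with DESeq2, 3 with the replicate block, 0 to 1 with an experiment left out and 1 to 3 with an experiment left out of the blocked fit, an alternative added after the data were seen. Of all genes 0.0607% passed for this change, and 0.577% with the block. For these counts the shares of all genes under the other alternatives are not given here. Of the 7 genes' calls the block changed no other than those given beside the results. The number of genes called between donors and acceptors was 3372, and 5839 with the replicate block.

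Small differences that were never called changed sign. With an experiment left out, donors minus aSyn-only cells ran from -0.10 to 0.36 for Zbtb16 (negative without experiment 2), -0.062 to 0.11 for Fkbp5 (positive without experiment 3), -0.12 to 0.019 for Per1 (positive without experiment 3), -0.13 to 0.52 for Klf9 (negative without experiment 1) and -0.11 to 0.011 for Nr3c1 (positive without experiment 1). Over 15 to 300 min Fkbp5 was at 0.015. Acceptors minus untreated cells ran from -0.098 to 0.15 for Per1, with -0.021 without experiment 3 and the lowest without experiment 4, and from -0.44 to 0.38 for Klf9, positive without experiment 4 and, at 0.14, with the replicate block. The cause was not tested. Zbtb16 in donors rests on 0 to 11 counts per library, which limits its fold change more than its direction.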
